A study of Mus musculus with 3 samples.

Results

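The cells described here are myeloid cells of the mouse brain that carry a high cell cycle score. They were chosen by measured values: the larger of the deposited S score and G2M score had to be at least 0.1, the deposited class had to be 1 of 8 myeloid classes, and 4 dendritic names (DC1 to DC4) had to be absent. The rule kept 514 of the 12668 cells of the series, or 514 of 11402 non-dendritic myeloid cells, and these 514 are called scored cells below. The other 10888 non-dendritic myeloid cells are called other myeloid cells. The study sequenced RNA of single immune cells of the right hemisphere, caught in droplets on a Chromium controller of 10x Genomics, in 3 libraries, 1 each from animals with no tumor, with low grade glioma (LGG) and with a tumor labelled HGG. Tumor, or normal tissue of similar size, was taken where cells had been injected, digested with papain and enriched for CD45+ cells, CD45 being a surface protein of blood-derived cells and microglia. The labelled ages were 0 to 2 weeks for the no-tumor library, 3 to 4 weeks for LGG and 6 to 8 weeks for HGG, and no strain, injected cell line or number of animals is named in the labels. The sample title of the HGG library reads no tumor while its library code reads HGG, so it is called the library labelled HGG, or HGG. With 1 library per group there is no replicate check of any difference between groups, and library, labelled age and tumor group cannot be told apart.

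A dividing cell copies its DNA in S phase, passes through G2 and divides in M phase, and each step has its own set of expressed genes. An S score or a G2M score sums up such a set in 1 cell relative to control genes, so a cell can be high in S, in G2M or in both. Microglia, the resident macrophages of the brain, renew themselves by local division and divide much in the young brain, and macrophages in gliomas can divide in place as well. Mki67 and Top2a are the usual marker genes of cycling cells. The table analysed holds cells and no gene values, so neither marker could be looked at, the labels do not give the gene lists behind the scores, and the word cycling could not be checked against genes. Scores, classes, clusters and names all come from the same expression values, and they are therefore described without a test.

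The scored cells were few in every library. They were 3.36% of non-dendritic myeloid cells in the no-tumor library (115 of 3418; exact 95% interval 2.79 to 4.02%), 4.63% in LGG (190 of 4102; 4.01 to 5.32%) and 5.38% in HGG (209 of 3882; 4.69 to 6.14%). Every interval in the text is at the 95% level and covers counting error alone, by the Clopper-Pearson method where it belongs to a share and by the Katz log method where it belongs to a ratio. A class set by a score is a range, and around the limit the scores ran on without a gap: 37 scored cells lay less than 0.01 above it, the lowest at 0.10004, and 52 other myeloid cells lay less than 0.01 below it, the highest at 0.09998. The deposited phase, which in this table asked only that the larger score be above 0, put 4110 of the 11402 cells (36.0%) in S or G2M, and no scored cell had a phase other than that of its larger score. Among the scored cells the larger score ranged from 0.10004 to 1.53 with a median of 0.314.

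**Figure D1:**
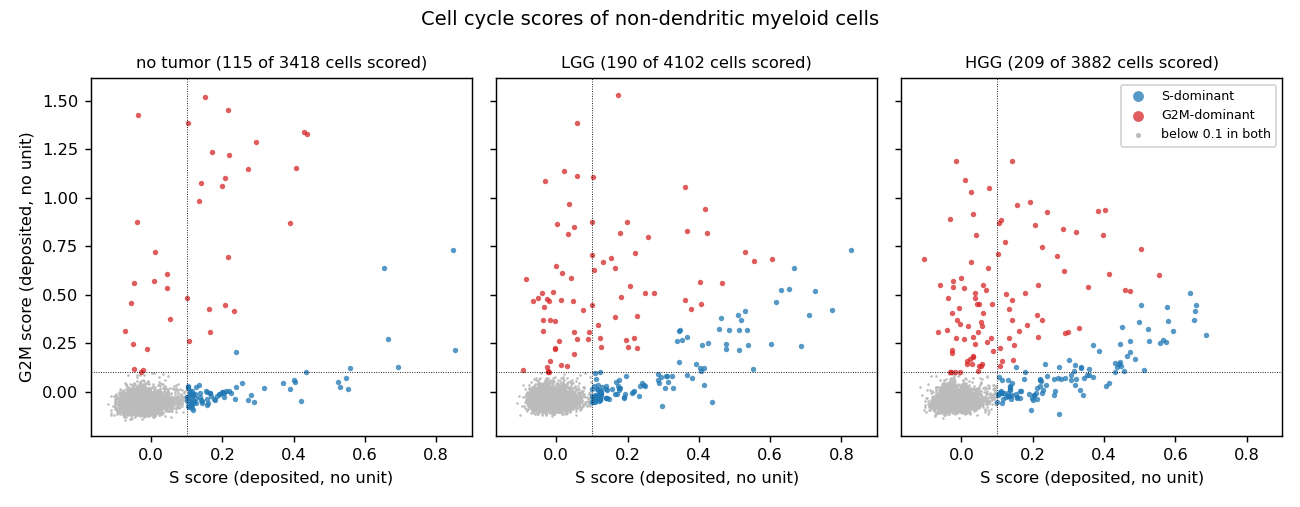
Each point is 1 non-dendritic myeloid cell, by its deposited S score (x axis) and G2M score (y axis), both without unit, in the no-tumor, LGG and HGG libraries. Dotted lines mark the limit of 0.1. Scored cells form an arm of high S and low G2M scores (blue, S score larger) and a wider arm of high G2M scores (red), and the grey cells below the limit adjoin both.

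Compared between libraries, the scored share was 1.60 times as high in HGG as in no tumor (interval 1.28 to 2.00) and was called higher, a call that asked for a ratio of at least 1.5 and for exact intervals that did not overlap. It was 1.38 times as high in LGG as in no tumor (1.10 to 1.73) and 1.16 times as high in HGG as in LGG (0.960 to 1.41), and neither was called. The HGG call was lost at 1.38 without cells that carry a doublet call (a droplet judged to hold more than 1 cell), and when libraries were compared within 10 strata of UMIs per cell (unique molecular identifiers, the count of captured RNA molecules), where the ratio to no tumor was 1.07. The ratio turned below 1, at 0.877, when each library was given the pooled composition of the classes found in all 3 libraries. The class named activated microglia, a name that no cell of the no-tumor library carried, was left out of that value. The class named Int Mo/Mac held 331 of the 514 scored cells, so giving each library the same share of it also evens out the scored cells themselves. The value at the pooled composition therefore cannot part class from score. The LGG ratio to no tumor was 0.959 within the strata and 0.876 at the pooled composition. The order of the libraries thus differed between these settings, and the reason was not tested.

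A single class held most of the scored cells. The class named Int Mo/Mac, in which Mo/Mac is the field's short form for monocytes and macrophages, gave 331 of the 514 scored cells (64.4%; 60.1 to 68.5%), against 434 of the 10888 other myeloid cells (3.99%). Within this class 47.9% of cells were scored in the no-tumor library (58 of 121), 37.0% in LGG (123 of 332) and 48.1% in HGG (150 of 312). The ratio was 1.003 for HGG against no tumor (0.806 to 1.25), 0.773 for LGG against no tumor (0.612 to 0.975) and 1.30 for HGG against LGG (1.08 to 1.56), with no call. The ratio for LGG against no tumor was called lower in settings added after the data were seen. It was 0.655 (0.507 to 0.845) without cells that carry a T or NK name in any column. With at least 4000 UMIs it was 0.636 (0.490 to 0.825).

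Microglia, by far the largest class, held few scored cells for their number. They gave 92 scored cells of 6916 (1.33%), which was 1.63% in the no-tumor library (47 of 2877), 1.07% in LGG (22 of 2060) and 1.16% in HGG (23 of 1979). The ratio was 0.711 for HGG against no tumor (0.433 to 1.17) and 0.654 for LGG against no tumor (0.395 to 1.08), neither called. The LGG ratio was not stable. It became 0.304 (0.142 to 0.650), called lower, with at least 4000 UMIs, and 1.28 (1.18 to 1.39), without a call, by the deposited phase. Since microglia were so numerous, they still gave 40.9% of the scored cells of the no-tumor library (31.8 to 50.4%), against 11.6% in LGG and 11% in HGG. Activated microglia, a class name on no cell of the no-tumor library, had 3 of 453 cells scored in LGG and 5 of 348 in HGG. Cells of the coarse clusters that hold this class were found in the no-tumor library under other class names. With those counted as activated microglia, the microglia ratio for LGG against no tumor was 0.639 (0.385 to 1.06).

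After Int Mo/Mac, the macrophage class with the most scored cells was the glioma associated macrophages, with 55. They were 4.35% of that class in the no-tumor library (5 of 115; 1.43 to 9.85%), 9.66% in LGG (23 of 238; 6.23 to 14.1%) and 3.16% in HGG (27 of 854; 2.09 to 4.57%). The share was 0.327 times as high in HGG as in LGG (0.191 to 0.560) and was called lower. With all cells kept and the limit at 0.1, it was the only call among the 8 classes taken separately. This call depended on the limit: the ratio was 0.619 at a limit of 0.15 and 1.05 at a limit of 0.2. HGG cells of the class that were scored had a median larger score of 0.220, against 0.140 in LGG.

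The remaining classes gave few cells. Border associated macrophages, which live at the meninges, vessels and choroid plexus, had 1 of 231 scored in the no-tumor library, 8 of 457 in LGG and 2 of 156 in HGG. The class named macrophages had 2 of 46 scored in the no-tumor library, 10 of 529 in LGG and 1 of 226 in HGG. Monocytes gave 1 scored cell of 35 and neutrophils, short-lived cells that mature before they leave the bone marrow, gave 3 of 33. No ratio between libraries was called in any of these 4 classes, whose intervals were wide.

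**Figure D2:**
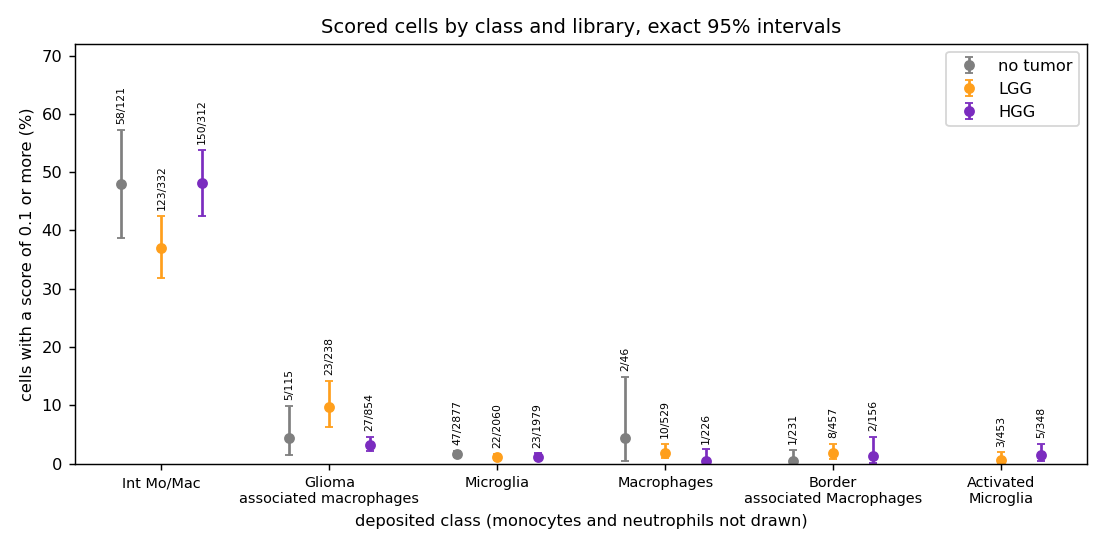
Percent of cells at or above a score of 0.1 (y axis) in 6 deposited classes (x axis) for the no-tumor, LGG and HGG libraries, with exact 95% intervals and the cells behind each point. Int Mo/Mac stands at 37.0 to 48.1% in the 3 libraries, and every point of the other 5 classes is at 9.66% or below.

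Within Int Mo/Mac the scored cells were nearly all in a single deposited cluster, number 11 at a clustering resolution of 1.5. The cluster held 323 non-dendritic cells, all of them named Int Mo/Mac, and 308 of these were scored (95.4%; 92.5 to 97.4%). It was found in each library, with 58 of 64 cells scored in no tumor, 108 of 111 in LGG and 142 of 148 in HGG. Outside it, 23 of 442 Int Mo/Mac cells were scored (5.20%), with 0 of 57 in the no-tumor library, 15 of 221 in LGG and 8 of 164 in HGG. The scored cells of cluster 11 were therefore 59.9% of all scored cells, while 15 of the 10888 other myeloid cells were in it (0.138%). The cluster was picked for this description after its counts were seen, and since cells were clustered on their expression, its high share of scored cells is no test.

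Divided this way, the scored cells of cluster 11 and those elsewhere ran differently over the libraries. The cells of cluster 11 were 1.70% of non-dendritic myeloid cells in no tumor, 2.63% in LGG and 3.66% in HGG. That was 2.16 times as high in HGG as in no tumor (1.59 to 2.92, called higher) and 1.55 times as high in LGG as in no tumor (1.13 to 2.13, intervals overlapping, no call). Of these cells, 62 of 142 in HGG had under 4000 UMIs, against 8 of 58 in no tumor. Doublet calls were on 18.3% of them in HGG and on 0 in no tumor. The ratios of cluster 11 were not recomputed by depth or without doublet calls. The scored cells outside cluster 11 were 1.67% in no tumor, 2.00% in LGG and 1.73% in HGG, and their ratio was 1.03 for HGG against no tumor (0.729 to 1.47) and 1.20 for LGG against no tumor (0.858 to 1.68). Whether the difference between these ratios exceeds the spread between animals was not tested.

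**Figure D3:**
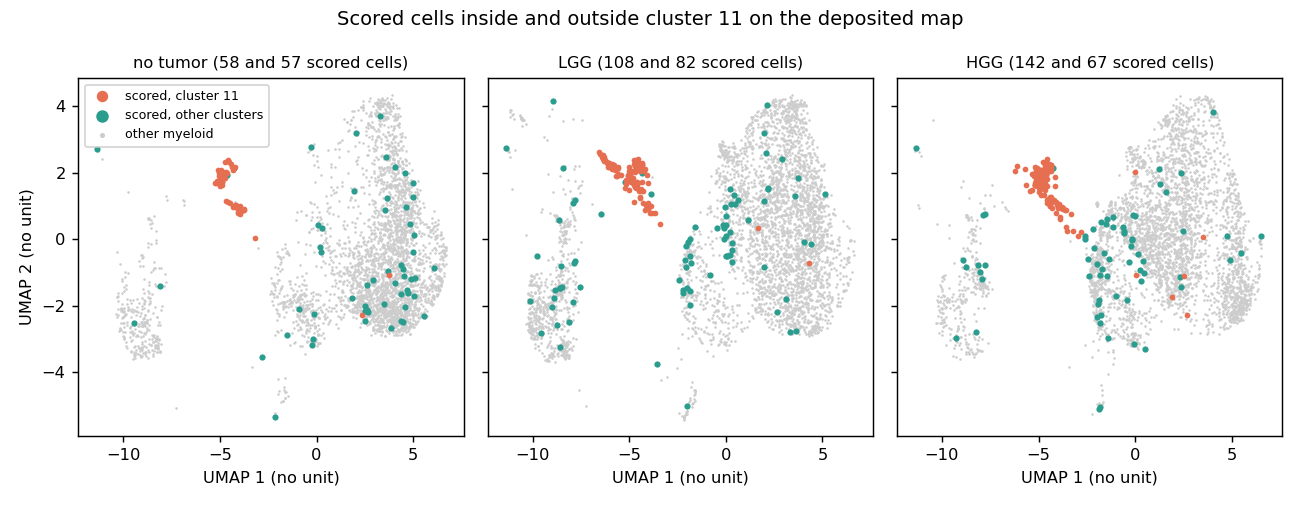
The authors' UMAP map (both axes without unit) of non-dendritic myeloid cells in the no-tumor, LGG and HGG libraries, with scored cells of cluster 11 in orange, other scored cells in green and other myeloid cells in grey. Most cells of cluster 11 (58, 108 and 142 scored cells) lie apart from the rest in 2 adjoining patches, and the other scored cells (57, 82 and 67) are spread over the large groups.

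The scored cells were also stronger in score inside the cluster than outside it. The median of the larger score in cluster 11 was 0.542 in no tumor, 0.509 in LGG and 0.443 in HGG, and outside the cluster it was 0.126, 0.142 and 0.164 in the same order of libraries. Both scores were at 0.1 or above in 172 of the 308 cells of cluster 11 (55.8%), against 14 of the 206 scored cells elsewhere (6.80%). Only 2 of the 37 scored cells next to the limit were in cluster 11. Outside the cluster the quartiles of the larger score were 0.115 and 0.214.

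By the larger score, 297 scored cells were S-dominant and 217 were G2M-dominant. The S-dominant share was 67.8% in no tumor (78 of 115; 58.5 to 76.2%), 57.9% in LGG (110 of 190; 50.5 to 65.0%) and 52.2% in HGG (109 of 209; 45.2 to 59.1%). The ratio was 0.769 for HGG against no tumor (0.642 to 0.921), and no pair of libraries was called. Inside cluster 11 the S-dominant share was 44.8% in no tumor, 36.1% in LGG and 35.9% in HGG. Outside it was 91.2% in no tumor, 86.6% in LGG and 86.6% in HGG, so no tumor was highest both inside and outside. The part of the scored cells that lay in cluster 11 also differed, at 50.4% in no tumor, 56.8% in LGG and 67.9% in HGG. What each of these adds to the order of the libraries in the whole was not tested. The S-dominant share was lower at higher limits in each library. At a limit of 0.05 the share was 80.4% in no tumor, 67.7% in LGG and 63.2% in HGG. This order of the libraries was that found at 0.1. At a limit of 0.2 the share was 46.9% in no tumor (34.3 to 59.8%), 45.0% in LGG (36.2 to 54.0%) and 46.5% in HGG (38.4 to 54.6%). Those values were close and their intervals overlapped, so they give no order.

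Classes divided along the same line. As a base, the deposited phase, which asked only for a score above 0, put 3067 of its 4110 S or G2M cells in S. Among scored glioma associated macrophages 54 of 55 were S-dominant (98.2%; 90.3 to 99.95%), with the single G2M-dominant cell in HGG. Among scored microglia 81 of 92 were S-dominant (88%; 79.6 to 93.9%), with 44 of 47 in no tumor, 19 of 22 in LGG and 18 of 23 in HGG. Scored Int Mo/Mac cells were mostly G2M-dominant, with 135 of 331 S-dominant (40.8%; 35.4 to 46.3%). The 23 scored Int Mo/Mac cells outside cluster 11 were like the other classes instead, with 19 of them S-dominant. Of the smaller classes, 7 of 8 activated microglia, 11 of 13 macrophages and 7 of 11 border associated macrophages were S-dominant. A G2M-dominant cell outside cluster 11 was uncommon in any class, with 25 among 206 scored cells, and their median G2M score was 0.133, against 0.526 for the 192 in the cluster.

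The finest clustering read, at a resolution of 5, had a mostly G2M-dominant and a mostly S-dominant cluster. Its cluster 25 held 195 scored cells of 199, of which 182 were G2M-dominant, with a median S score of 0.107 and a median G2M score of 0.511. Its cluster 33 held 126 scored cells of 156, of which 114 were S-dominant, with a median S score of 0.405 and a median G2M score of 0.129. Each library gave cells to both, with 33, 68 and 94 scored cells in cluster 25 and 34, 42 and 50 in cluster 33 for no tumor, LGG and HGG. Cluster 33 also held 11 scored cells of the class microglia, 8 of them from the no-tumor library. Clusters 25 and 33 held 13 and 114 of the 297 S-dominant scored cells, so most S-dominant cells lay in neither. Resolutions of 4 and 4.5 had a cluster with the same counts as cluster 25. Beside it was a mostly S-dominant cluster of 125 scored cells at 4 and of 100 at 4.5. At the coarser resolutions read, from 0.4 to 3.5, a single cluster held 290 to 309 scored cells, at 94.8 to 97.3% of its cells, and at 3.5 a further cluster held 26 scored cells of 73, all S-dominant.

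The table also holds names taken from reference data sets, which rest on the same expression values as the scores. A name written prol. TAM, which published maps of mouse glioma use for proliferating tumor-associated macrophages, was given to 198 of the 514 scored cells (38.5%; 34.3 to 42.9%) and to 58 of the 10888 other myeloid cells (0.533%). It went to 27.0% of scored cells in no tumor (31 of 115), 41.1% in LGG (78 of 190) and 42.6% in HGG (89 of 209). Inside cluster 11 it went to 51.7%, 60.2% and 60.6% of scored cells in the same order, a ratio of 1.17 for HGG against no tumor (0.883 to 1.55). The name was more frequent on G2M-dominant cells: in cluster 11 it was on 149 of 192 of them (77.6%), against 32 of 116 S-dominant cells (27.6%). It went with low depth too, as scored cells with the name had a median of 5339 UMIs, against 11615 for all scored cells. The parts of score and depth in the name were not tested. Elsewhere it was on 17 of 206 scored cells (8.25%). A further reference column gave the same name to 197 scored cells.

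Which kind of myeloid cell the scored cells resembled differed between libraries. In the column headed VHove2019_v2, the scored cells of cluster 11 were named microglia in 81.0% of cases in no tumor (47 of 58; 68.6 to 90.1%), 16.7% in LGG (18 of 108; 10.2 to 25.1%) and 33.8% in HGG (48 of 142; 26.1 to 42.2%). The ratio was 0.417 for HGG against no tumor (0.321 to 0.542) and 0.206 for LGG against no tumor (0.133 to 0.319), both called lower. Other myeloid cells had the same name at 90.4% for no tumor, against 72.3% for LGG and 75.6% for HGG. Their ratios to no tumor were 0.836 for HGG (0.818 to 0.854) and 0.799 for LGG (0.781 to 0.817). Both fell short of the size asked for a call. All cells of cluster 11 were of the class Int Mo/Mac, against 3.99% of other myeloid cells, of which 62.7% were of the class microglia. The part of class in this contrast was not tested.

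In place of microglia, the names cDC and BAM were frequent in the LGG and HGG cells of the cluster, and the name T cells in LGG. The name cDC, for conventional dendritic cells, was on 5.17% of scored cells in no tumor, 25% in LGG and 28.9% in HGG, although cells with a dendritic name in another column had been left out. The name BAM, for border associated macrophages, was on 6.90%, 25% and 28.2% in the same order. The name T cells was on 28 of 108 scored LGG cells of the cluster (25.9%; 18.0 to 35.2%), against 0 of 142 in HGG and 0 of 58 in no tumor, which allow shares of up to 2.11% and 5.17%. The names cDC and BAM were called higher in HGG than in no tumor, at ratios of 5.58 (1.80 to 17.3) for cDC and 4.08 (1.53 to 10.9) for BAM, and higher in LGG than in no tumor, at 4.83 (1.53 to 15.3) and 3.63 (1.33 to 9.86). The name cDC also differed over all non-dendritic myeloid cells, scored ones included. It was on 20 of 3418 in no tumor, 216 of 4102 in LGG and 308 of 3882 in HGG. Its rise was thus not particular to cluster 11. No such count is given here for BAM. The scored cells outside the cluster ran the same way, with the name microglia on 96.5% in no tumor, 40.2% in LGG and 41.8% in HGG. Their classes differed in the same direction, with 47 of 57 of the class microglia in no tumor, 22 of 82 in LGG and 23 of 67 in HGG. The part of the class mix in these shares was not tested. A second SingleR column (SingleR is a program that names cells by reference profiles) called 89.7% of scored cells of cluster 11 microglia in no tumor, 39.8% in LGG and 51.4% in HGG, and called 10.3%, 24.1% and 45.1% macrophages.

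**Figure D4:**
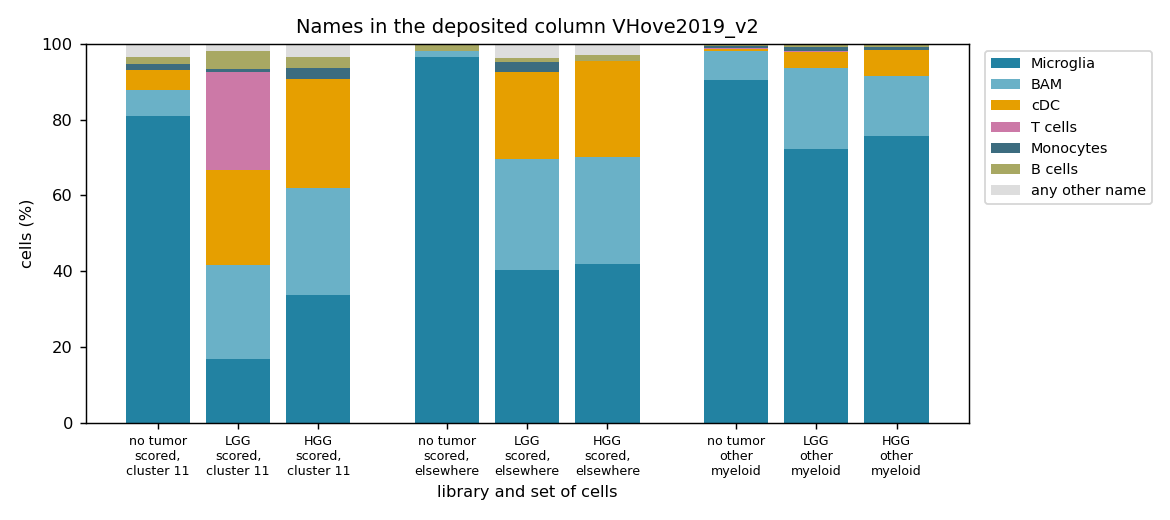
Percent of cells (y axis) with each name in the column VHove2019_v2, for scored cells of cluster 11, scored cells elsewhere and other myeloid cells of the no-tumor, LGG and HGG libraries. Microglia make up 81.0% of the no-tumor bar of cluster 11, against 16.7% in LGG and 33.8% in HGG, and the pink T cell part appears in the scored LGG cells of cluster 11.

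Some scored cells of LGG carried lymphoid names, which touches the values of LGG above. In 6 columns that can give a T or NK name, 21 to 36 scored LGG cells had one, against 0 or 1 in HGG and 0 or 1 in no tumor. At least 3 of the 6 columns gave such a name to 30 scored cells, all in LGG, all in cluster 11 and all of the class Int Mo/Mac, and 20 had one in all 6. These 30 had a median of 43679 UMIs, 16 of them were S-dominant, 11 carried a doublet call and 15 were named regulatory T cells in 1 column. In the column headed cell.label, 14 of the 30 were named regulatory T cells and 12 were named CD8 T cells. Without every cell that had a T or NK name in any column, 72 scored LGG cells of cluster 11 stayed, of which 22.2% were named microglia, against 81.0% of the 58 no-tumor cells, and the scored share became 1.41 times as high in HGG as in LGG. In another column headed final, 46 scored cells were T cells, with 5 in no tumor, 40 in LGG and 1 in HGG. In a column of names given by marker list, 236 of the 253 cells called T cells were scored, with 38 in no tumor, 85 in LGG and 113 in HGG, and another column of that kind called 320 scored cells unknown. The part that T cells, or pairs of cells in a droplet, have in cluster 11 was not tested.

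Doublet calls were more frequent among scored cells in both tumor libraries. They were on 2.61% of scored cells against 2.76% of other myeloid cells in no tumor, on 17.4% against 1.15% in LGG and on 15.8% against 1.82% in HGG. In cluster 11, 0 of 58 scored cells had a call in no tumor, which allows a share of up to 5.17%, and 27 of 108 had one in LGG (25%) and 26 of 142 in HGG (18.3%). Every called cell of the cluster had at least 4000 UMIs. Cells with a call were kept in all values here, and without them the scored share was 1.38 times as high in HGG as in no tumor (1.09 to 1.74), short of a call.

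The rule did not use counts of UMIs and detected genes, and these were compared within each library. The scored share itself varied with depth, as given below, so these measures are not independent of the choice of cells. The median UMIs per cell of scored and of other myeloid cells were 10438 and 8787 in no tumor, 13216 and 9411.5 in LGG, and 8322 and 13058 in HGG. On the log2 scale the scored minus other difference was 0.25, 0.49 and -0.65, so that scored cells had more UMIs in no tumor and LGG and fewer in HGG. The mean was 0.03 ± 0.60 (SD, n = 3 libraries), with p = 1 by an exact two-sided sign-flip permutation test, of which the smallest possible p with 3 libraries is 0.25. The deposited percent.ribo, named for ribosomal genes, was higher in scored cells in 3 of 3 libraries. It reached at most 1.85% in any cell of the table, a level low for ribosomal protein genes in droplet data, and which genes it counts is unknown. It was 0.446% in scored and 0.383% in other cells in no tumor, 0.548% and 0.355% in LGG, and 0.575% and 0.351% in HGG, a mean difference of 0.160 ± 0.0852 percentage points (SD, n = 3 libraries; exact sign-flip p = 0.25, the smallest possible).

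S-dominant cells had more UMIs than G2M-dominant cells in each library. The medians were 10775.5 and 8101 in no tumor, 14323.5 and 9440.5 in LGG, and 20525 and 3477.5 in HGG. The log2 differences were 0.41, 0.60 and 2.56, with a mean of 1.19 ± 1.19 (SD, n = 3 libraries; exact sign-flip p = 0.25, the smallest possible). Detected genes ran alike, with medians of 3415 and 2489 in no tumor, 3355.5 and 2491.5 in LGG, and 4171 and 1299 in HGG. Among cells with at least 4000 UMIs the mean log2 difference of UMIs was -0.21 (exact sign-flip p = 0.5), but this filter acts on the measure compared, so it does not show where the direction comes from. The difference was 1.40 ± 1.28 inside cluster 11 and 2.53 ± 0.787 outside it, and positive in 3 of 3 libraries in both, with 25 G2M-dominant cells outside the cluster in all.

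Of the 514 scored cells 156 had under 4000 UMIs, 101 of them in cluster 11 and 62 of these in HGG. Under 4000 UMIs were 13.8% of scored cells of the cluster in no tumor (8 of 58; 6.15 to 25.4%), 28.7% in LGG (31 of 108; 20.4 to 38.2%) and 43.7% in HGG (62 of 142; 35.4 to 52.2%). Outside the cluster such cells were 17.5% of scored cells in no tumor (10 of 57), 30.5% in LGG (25 of 82) and 29.9% in HGG (20 of 67). Inside the cluster the HGG share was 3.17 times as high as that of no tumor (1.62 to 6.19, called higher), whereas other myeloid cells stood at 14.3% in no tumor, 14.9% in LGG and 15.8% in HGG. Of the 101 cells in the cluster 80 were G2M-dominant and 84 were named prol. TAM, and 0 had a doublet call, which allows a share of up to 2.97%. With only cells of at least 4000 UMIs the scored share was 1.19 times as high in HGG as in no tumor.

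**Figure D5:**
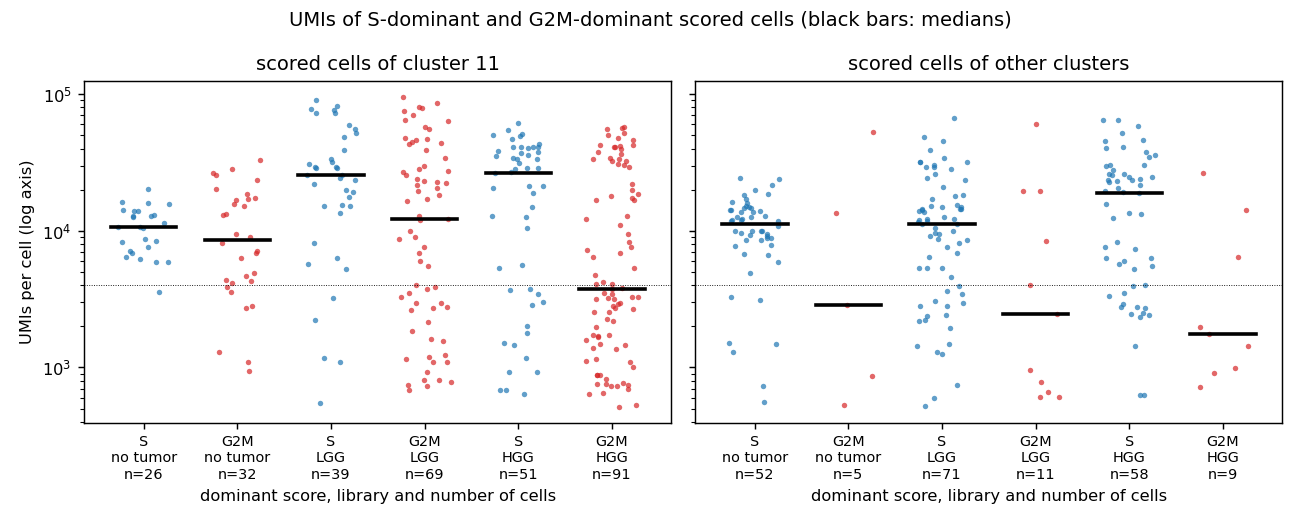
UMIs per cell (y axis, log scale) of S-dominant (blue) and G2M-dominant (red) scored cells by library, in cluster 11 (left) and in other clusters (right); black bars are medians and the dotted line is at 4000 UMIs. In cluster 11 the HGG medians are 26655 for S-dominant and 3780 for G2M-dominant cells, against 10692 and 8543 in no tumor.

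Over all libraries the scored share was high at both ends of depth. It was 13.1% in cells of 1000 UMIs or fewer (46 of 351; 9.76 to 17.1%), 2.28% between 4000 and 8000, 2.31% between 8000 and 16000 and 21.3% above 32000 (91 of 428; 17.5 to 25.4%). Between 8000 and 16000 UMIs, the range with the most cells, it was 3.00% in no tumor (55 of 1831), 2.02% in LGG (38 of 1885) and 1.57% in HGG (15 of 954). Between 2000 and 4000 UMIs the order of the libraries was the opposite, with 2.61% in no tumor (8 of 307), 7.94% in LGG (25 of 315) and 11.7% in HGG (35 of 298). The libraries held 32685080 to 61872213 UMIs in all and differed in depth per cell, with median UMIs of myeloid cells of 8810 in no tumor, 9452.5 in LGG and 12926.5 in HGG. Without values per gene, no thinning of cells to equal UMIs was possible, and the part of depth in these shares was not tested. Of 15 cell barcodes found in more than 1 library, 2 belonged to a scored cell.

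A pair of further names held scored cells far above their share. In the column headed cell.label, 25 of 27 cells named erythrocytes were scored, all 25 in cluster 11, with 9 in no tumor, 10 in LGG and 6 in HGG. Of these, 22 were G2M-dominant, with a median G2M score of 0.806. The name unknown in that column was on 67 scored cells of 399, with 3 in no tumor, 21 in LGG and 43 in HGG, at a median of 1158 UMIs.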

How the data were processed

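Per the labels' protocols, mapping to mm10 and quantification were done with Cell Ranger 3.0.2. Per the submitters' processing notes, Seurat 4 was used too. The sources used here do not give cell filters, score gene lists or naming methods. The authors deposited a table with 1 row per cell and 64 columns, of which 35 were read and 29 were not. Per the file headers, it holds for each cell a UMI count and a gene count (at least 501 and 201), not normalized. The percent of mitochondrial and of ribosomal UMIs was deposited by the authors per cell, up to 9.97% and 1.85%, without the gene patterns used. Per-cell S and G2M score values and the UMAP values, which have no unit, were deposited by the authors as well.

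Libraries were assigned to groups by the library code in the labels. Shares, exact Clopper-Pearson intervals and Katz log intervals for ratios were computed with Python 3.11.15, numpy 2.4.6, pandas 2.3.3 and scipy 1.17.1, at 95%. Where a share was 0, its limit was set at 3 counts. No p-value was computed between groups, which have 1 library each. Within libraries, log2 ratios or differences of medians were tested over the 3 libraries with an exact sign-flip permutation test. Calls, intervals and the strata were tested on simulated counts. Classes were all described, and other names or clusters were described where they held at least 20 scored cells at 3 times the myeloid share or more. Alternatives were other limits of the score, the deposited phase, common depth, strata of depth, filters on cells and class composition. The members, classes and comparisons were chosen with earlier results of these data known, and the single cluster, the T or NK names and the split at 4000 UMIs were chosen after the values were seen.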

Additional observations from a re-analysis of the deposited data

Results flagged for a closer look

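The difference in depth between scored and other myeloid cells pointed in different directions in the libraries. On the log2 scale, the median UMIs of scored minus other cells differed by 0.25 in no tumor, 0.49 in LGG and -0.65 in HGG. Detected genes differed by 0.21 in no tumor, 0.29 in LGG and -0.41 in HGG. For the mitochondrial share of UMIs, medians differed by 0.198 percentage points in no tumor, 0.00744 in LGG and -0.445 in HGG. With 1 library per group the difference between libraries was not tested.

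Between S-dominant and G2M-dominant scored cells, 2 measures changed sign from library to library. The median mitochondrial percent of S-dominant minus G2M-dominant cells differed by -0.687 percentage points in no tumor, -0.229 in LGG and 0.315 in HGG. For percent.ribo, medians differed by -0.106 points in no tumor, 0.0151 in LGG and -0.0795 in HGG. These differences between libraries were not tested either.

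Cells outside the myeloid classes carried high scores too. In the lymphoid classes (T, CD8 T, CD4 T, NK and B cells), 67 of 648 LGG cells had a score of at least 0.1, a share of 10.3% (8.10 to 12.9%), against 2 of 87 cells in no tumor (2.30%). In HGG the share was 7.55% (12 of 159; 3.96 to 12.8%).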

How the results depend on the processing

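Of 300 recomputed values, the required changes were these. The scored share of HGG over no tumor (1.60) became 1.17 at a limit of 0.05, 2.13 at 0.2, 1.15 by the deposited phase, 1.07 in 10 strata of UMIs, 0.877 at the pooled class composition, 1.19 from 4000 UMIs upward and 1.06 without cluster 11. It was also short of a call at 1.38 without doublet calls and at 1.33 in the common range of UMIs (3047.4 to 13970.7). LGG over no tumor (1.38) became 0.790 in the common range, 0.959 in the strata and 0.876 at the pooled composition, and was called at 1.54 and 1.68 with limits of 0.15 and 0.2 and at 1.52 with dendritic names kept. HGG over LGG (1.16) became 0.906 by phase, 1.68 in the common range, 0.798 in the strata, 1.41 without T or NK names and 0.873 without cluster 11. For glioma associated macrophages, HGG over LGG (0.327) became 1.05 at a limit of 0.2. The S-dominant share in no tumor (67.8%) was 80.4%, 56.4% and 46.9% at limits of 0.05, 0.15 and 0.2, 80.3% by phase and 91.2% without cluster 11. In LGG (57.9%) it was 67.7%, 49.3% and 45.0% at those limits, 72.1% by phase, 67.3% in the common range and 86.6% without cluster 11. In HGG (52.2%) it was 63.2% at 0.05, 73.2% by phase, 63.0% from 4000 UMIs upward and 86.6% without cluster 11. The mean log2 difference in UMIs of scored minus other cells (0.03) became -0.44 at 0.05, -0.30 by phase, -0.37 without doublet calls, -0.29 within classes and -0.16 without T or NK names, and that in genes (0.03) became -0.23, -0.15, -0.23, -0.082 and -0.089. The mitochondrial difference (-0.0799 points) became 0.0492 at 0.2 and 0.141 from 4000 UMIs upward. For S-dominant minus G2M-dominant cells, UMIs (1.19) became -0.21 and genes (0.86) -0.086 from 4000 UMIs upward. Their mitochondrial difference (-0.200 points) became 0.318 without doublet calls and 0.742 without cluster 11, and the percent.ribo one (-0.0569 points) became 0.0280 without cluster 11. At limits of 0.05, 0.15 and 0.2, cluster 11 held 31.2%, 75.7% and 82.5% of scored cells (59.9%), and prol. TAM named 20.6%, 48.9% and 53.2% (38.5%), or 30.2% from 4000 UMIs upward. Doublet calls (13.4%) were on 8.18% at 0.05, 18.1% at 0.2 and 19.3% from 4000 UMIs upward. The scANVI name T cells in LGG (18.9%) was on 10.8% at 0.05, 27.1% at 0.2, 13.4% without doublet calls and 26.9% from 4000 UMIs upward. The cause of these changes was not tested. The settings without T or NK names, without cluster 11 and from 4000 UMIs upward were added after seeing the data. The percent.ribo difference of scored minus other cells stayed positive in all 9 alternatives run for it, from 0.0288 to 0.187 points. Between groups no paired analysis was possible because each group has a single library; contrasts of cells within a library were paired by library. The number of cells limits these values, since a share of 0 among myeloid cells allows up to 0.0731 to 0.0878% per library.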

Other observations

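Cells with a dendritic name, which the rule left out, held scored cells in both tumor libraries. They numbered 27 of 146 in LGG (18.5%; 12.6 to 25.8%) and 7 of 51 in HGG (13.7%; 5.70 to 26.3%), against 0 of 4 in no tumor. Cluster 11 held 17 such cells, 14 from LGG and 3 from HGG, and all 17 were scored, so that with them 325 of the 340 cells of the cluster were scored. Erythrocytes and platelets, as classes of the same column that gave the myeloid classes, had 2 scored cells of 171, both in LGG.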
